A study of Mus musculus with 6 samples.

Results

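The genes described here were 48 genes of the bone morphogenetic protein (BMP) and transforming growth factor beta (TGF-beta) pathway in P1 mouse cerebellum. They were given as a list of gene symbols covering ligands, extracellular antagonists, receptors, Smad proteins and Id target genes, and all 48 were found by symbol among the 54532 genes of the raw count table. Of these, 44 had enough counts to be tested, among 17505 tested genes in all. Bulk mRNA was sequenced from the cerebellum at postnatal day 1 in 3 libraries of Cre-negative Tox3f/f littermates (Ctrl) and 3 libraries of Nestin-cre;Tox3f/f mice (cKO). Every animal carried floxed *Tox3* alleles, and every cKO but no Ctrl animal carried the Cre transgene, so the loss of *Tox3* and the transgene itself cannot be told apart. *Nestin-Cre* is active in neural progenitors throughout the nervous system and was not limited to the cerebellum. The labels give neither the sex of a library nor whether it came from a single animal, so the p-values below measure the spread between these libraries.

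BMP and TGF-beta ligands are secreted dimers that bring type I and type II receptor kinases together, and the activated type I receptor phosphorylates receptor-regulated Smads, which join Smad4 and enter the nucleus. BMP receptors act through Smad1, Smad5 and Smad9, whereas TGF-beta and activin receptors act through Smad2 and Smad3. Antagonists such as noggin and chordin bind BMPs outside the cell, and the Id genes are classical BMP targets whose products sequester the basic helix-loop-helix partners of proneural factors such as Atoh1. In the cerebellum, BMPs from the roof plate induce the rhombic lip that gives rise to granule neuron progenitors, and BMP signaling opposes the proliferative response of these progenitors to Sonic hedgehog.

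The promoters of *Bmp4*, *Chrd* and *Id4* are shown because the first rose in the mutant, the second fell, and the third is a window of an Id gene that holds a searched motif. *Id4* itself was not called, and the window of *Id3*, the Id gene that was called, held none of the searched motifs. Each is the 250 bases before the start of a RefSeq transcript in GRCm38.p6, written 5′ to 3′ on the strand of the gene, with the motif found there in capitals. The *Bmp4* window, at chr14:46390670-46390919 on the minus strand, holds CACGTG 188 bases before the start. The *Chrd* window, at chr16:20732877-20733126 on the plus strand, holds GGCGCC 203 bases before the start. The *Id4* window, at chr13:48260866-48261115 on the plus strand, holds GGCGCC 148 bases before a RefSeq start that is not the first base of a transcript in the gene annotation used here. None of these 3 windows overlapped an annotated exon. These windows were chosen after the expression values were seen.
Bmp4: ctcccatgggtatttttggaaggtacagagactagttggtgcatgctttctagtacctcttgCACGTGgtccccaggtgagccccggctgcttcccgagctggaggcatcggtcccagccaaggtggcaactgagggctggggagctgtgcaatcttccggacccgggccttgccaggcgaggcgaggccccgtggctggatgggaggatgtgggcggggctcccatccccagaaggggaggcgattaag
Chrd: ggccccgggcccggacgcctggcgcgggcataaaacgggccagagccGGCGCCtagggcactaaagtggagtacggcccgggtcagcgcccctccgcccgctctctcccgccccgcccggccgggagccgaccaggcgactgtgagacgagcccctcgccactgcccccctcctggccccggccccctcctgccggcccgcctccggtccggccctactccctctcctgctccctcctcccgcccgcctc
Id4: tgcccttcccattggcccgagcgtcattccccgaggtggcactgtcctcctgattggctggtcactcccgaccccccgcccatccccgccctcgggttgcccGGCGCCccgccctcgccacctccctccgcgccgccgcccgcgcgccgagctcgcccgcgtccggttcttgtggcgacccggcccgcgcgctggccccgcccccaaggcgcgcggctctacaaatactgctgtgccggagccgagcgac

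A set of 5 hexamers was searched on both strands, and none of them contains another. They were CAGCTG and CAGATG, E-box cores read by Atoh1-class factors, GGCGCC, a GC-rich element read by BMP Smads, CAGACA, the CAGA box of TGF-beta Smads, and CACGTG, another E-box. Of the 48 genes, 32 had a promoter in the RefSeq table. GGCGCC was present in 10 of the 32, against 10.8% of 27025 genes with a promoter. Those 10 were *Bmpr1a*, *Bmpr2*, *Chrd*, *Grem1*, *Id2*, *Id4*, *Rgmb*, *Smad5*, *Smad9* and *Tgfbr1*, of which only *Chrd* was called below. CAGACA was present in 5 of the 32 (19.3% of all genes), CACGTG in 4 (6.86%), CAGCTG in 3 (14.7%) and CAGATG in 2 (16.3%). These are matches of letters in a short window and say nothing about binding.

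Total counts ranged from 15391854 to 17178478 per library. A gene was called when edgeR's quasi-likelihood test gave it a p under 0.01 after Benjamini-Hochberg adjustment over all tested genes and its log2 fold change (cKO minus Ctrl) lay beyond 0.5 in either direction. By this rule 6.66% of all tested genes were called, 3.03% higher and 3.63% lower in cKO, and the median log2 fold change over all tested genes was -0.01. *Tox3*, the targeted gene, had 987, 968 and 1003 counts in the Ctrl libraries and 959, 970 and 951 in the cKO libraries (log2 fold change -0.11, SE 0.06, adjusted p = 0.252 by edgeR's quasi-likelihood test). These counts are over the whole gene, while Cre removes only the flanked portion, so they do not check the labels. *Atoh1*, which specifies granule neuron progenitors, fell from 501, 491 and 481 counts to 10, 4 and 4 (log2 fold change -6.40, adjusted p = 8.85e-08 by the same test). The markers searched of granule neuron progenitors, Purkinje cells and Bergmann glia had counts in every library. No marker of the other cell types was at 0 in all libraries. *Gabra6*, of the differentiating granule neuron list, had only 2 to 8 counts per library and was not tested.

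Of the 44 tested pathway genes, 5 were called, which is 11.4% against 6.66% of all tested genes. The BMP ligands *Bmp4* and *Bmp6*, the BMP antagonist *Nog* and the target *Id3* rose in cKO, and the BMP antagonist *Chrd* fell. No TGF-beta or activin class ligand, receptor, co-receptor or Smad was called in either direction. The median log2 fold change of the 44 was 0.06, with 27 above 0 and 17 below. An adjusted p under 0.05, with no limit on the fold, was reached by 16 of the 44, against 25.1% of all tested genes, and an unadjusted p under 0.05 by 20 of the 44, against 37.1%. In 20 of the 44 the Ctrl and cKO libraries did not overlap, against 40.5% of all tested genes. Of these, 14 were higher in cKO, against 20.4% of all tested genes, and 6 were lower, against 20.1%. DESeq2 and limma on log2(FPKM + 1) each called the same 5 genes. When edgeR's glmTreat was used to test for a log2 fold change beyond 0.5 rather than beyond 0, *Chrd* alone stayed called, with adjusted p-values of 0.0256 for *Bmp4*, 0.506 for *Bmp6*, 0.185 for *Nog* and 0.0244 for *Id3*.

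**Figure D1:**
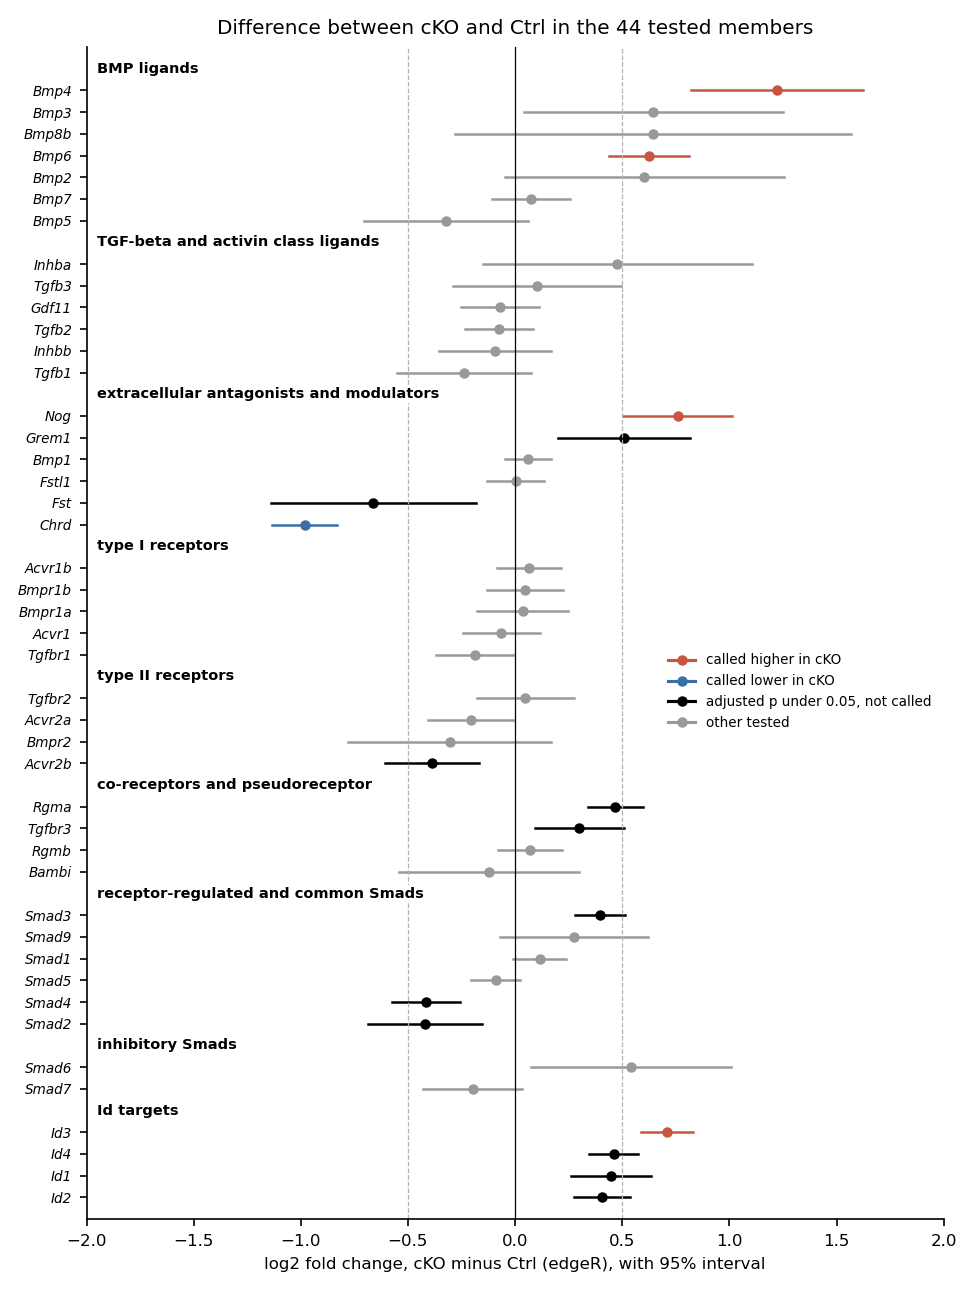
Log2 fold change (cKO minus Ctrl, horizontal axis) with its 95% interval for each of the 44 tested genes, grouped by role, with dashed lines at 0.5 in either direction. The 4 genes called higher (red) are *Bmp4*, *Bmp6*, *Nog* and *Id3*, *Chrd* is called lower (blue), and the 5 type I receptors lie close to 0.

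Levels of different genes were compared as FPKM, which divides counts by gene length and depth. In Ctrl *Id2* was the most abundant of the 48 genes, at 84.1 ± 6.46 FPKM (SD, n = 3). *Id3* and the co-receptor *Rgma* followed at almost the same level, 45.3 ± 2.17 and 45.3 ± 2.40 FPKM. *Id1* stood at 30.6 FPKM and *Id4* at 24.3 FPKM, the latter below *Smad4* and *Fstl1*. Among the BMP ligands, *Bmp6* was the most abundant at 10.1 ± 0.873 FPKM and *Bmp7* was next at 7.40 ± 0.109 FPKM, whereas *Bmp4* stood at 1.41 ± 0.0931 FPKM. *Chrd* was above *Nog* in Ctrl, at 9.72 ± 0.370 against 5.20 ± 0.554 FPKM, and below it in cKO, at 4.95 ± 0.113 against 8.84 ± 0.365 FPKM. This exchange of order was present in every library.

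**Figure D2:**
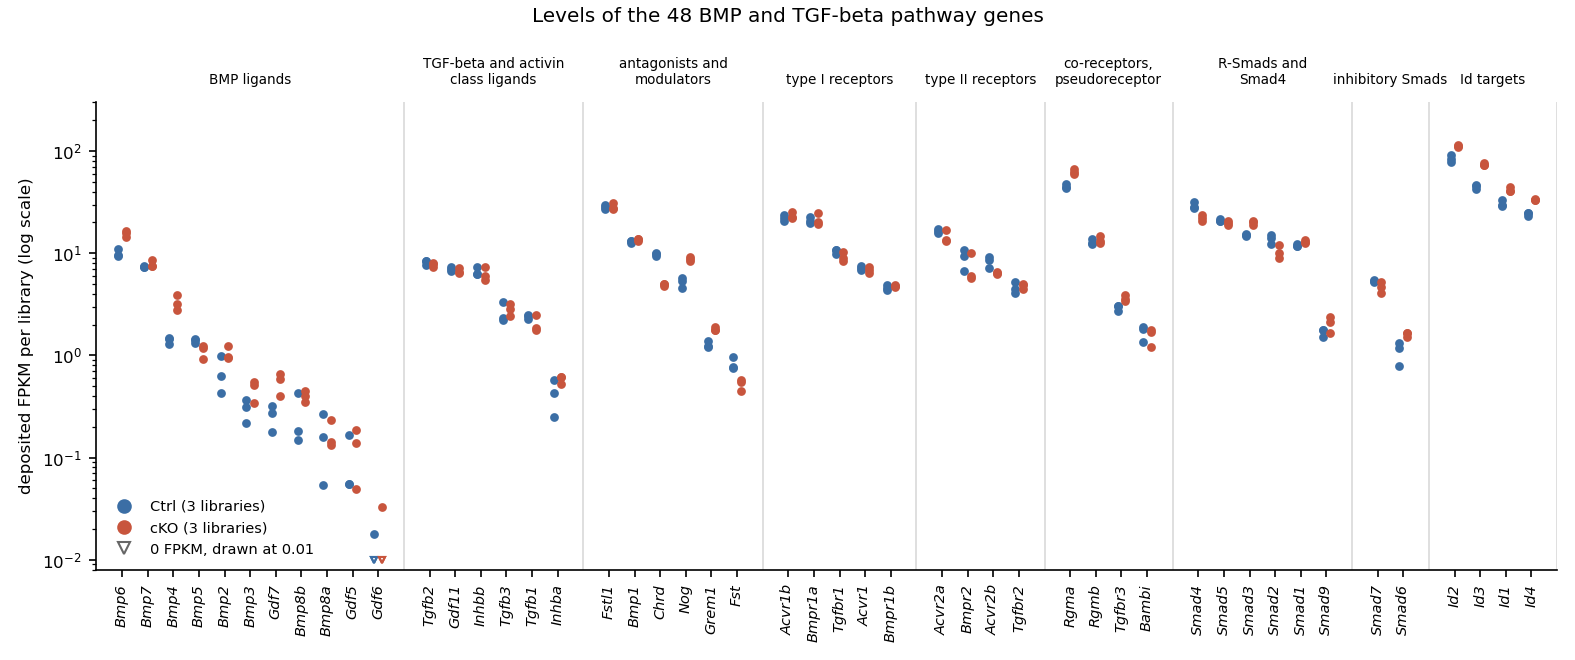
FPKM of all 48 genes in each library on a log scale, ordered by role and by level, with Ctrl in blue and cKO in red. *Id2* lies at the top, and *Id4* lies below *Rgma*, *Smad4* and *Fstl1* in Ctrl. *Chrd* and *Nog* exchange places between the groups, and *Gdf6* is at 0 in 4 libraries, drawn at the bottom of the axis.

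Among the 11 BMP-class ligands, 7 were tested, 2 rose and none fell, against 3.03% of all tested genes called higher and 3.63% called lower. *Bmp4*, the roof plate and mesenchymal BMP on chromosome 14 (ENSMUSG00000021835, mm10 chr14:46383520-46390669, minus strand), had 51, 51 and 46 counts in Ctrl and 154, 98 and 114 in cKO. These correspond to 3.32, 3.32 and 2.95 CPM (counts scaled to library size) in Ctrl and 8.88, 6.39 and 7.10 CPM in cKO. Every cKO library lay above every Ctrl library, and cKO 1 was the highest. *Bmp4* was 2.33-fold its Ctrl level (log2 fold change 1.22, SE 0.18, edgeR's quasi-likelihood adjusted p = 0.00103), the largest fold change among the 44 tested genes of the list.

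*Bmp6*, another BMP that signals through Smad1, Smad5 and Smad9 (ENSMUSG00000039004, mm10 chr13:38345107-38500302, plus strand), stood at 43.6, 37.8 and 37.4 CPM in Ctrl and 64.7, 61.7 and 56.5 CPM in cKO. The groups did not overlap, and the increase was 1.54-fold (log2 fold change 0.62, SE 0.08, edgeR's quasi-likelihood adjusted p = 6.52e-04). Whether counting used strand is not given in the sources used here, so neighbours on the opposite strand were examined. *Txndc5* overlaps *Bmp6* by 224 bases on the opposite strand and had a log2 fold change of 0.06. *Gm15222* overlaps *Bmp4* by 1764 bases on the opposite strand and had 7 to 30 counts per library. Its log2 fold change was 0.71 (edgeR's quasi-likelihood adjusted p = 0.28), the direction of *Bmp4*, and reads in the shared bases cannot be assigned to a strand here.

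*Bmp7*, the second most abundant BMP ligand, had a log2 fold change of 0.08 with a 95% interval of -0.11 to 0.26. *Bmp5* stood at 5.86, 5.79 and 5.33 CPM in Ctrl and 4.79, 3.72 and 5.04 CPM in cKO, with no overlap, and did not pass the test (log2 fold change -0.32, edgeR's quasi-likelihood adjusted p = 0.200). The other tested ligands, *Bmp2*, *Bmp3* and *Bmp8b*, had log2 fold changes of 0.60 to 0.64 at mean Ctrl levels of 0.996 to 2.44 CPM, and their adjusted p-values by the same test were 0.113 to 0.292. Of these, *Bmp3* alone had an unadjusted p under 0.05 by that test (0.0389, 95% interval 0.04 to 1.25), against 37.1% of all tested genes. After adjustment none of them passed, and at these counts a missed call says little. The summed FPKM of all 11 BMP ligands, examined after the values were seen, was 23.7, 21.4 and 20.9 in Ctrl and 32.8, 29.5 and 29.4 in cKO. *Bmp6* made up 45.7% of this sum on average in Ctrl and 50.9% in cKO.

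The 4 genes left out of the test for low counts were all BMP-class ligands. *Gdf7*, a roof plate ligand, had 6, 7 and 4 counts in Ctrl and 10, 13 and 15 in cKO. Without the count filter its log2 fold change was 1.08 (SE 0.60, edgeR's quasi-likelihood adjusted p = 0.276). *Bmp8a* had 10, 2 and 6 counts against 6, 5 and 9, and *Gdf5*, a joint-forming ligand, had 2, 2 and 6 against 2, 5 and 7. *Gdf6* had 3 counts over all 6 libraries.

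The 6 ligands of the TGF-beta and activin class, which signal through Smad2 and Smad3, had a median log2 fold change of -0.07, and in all 6 the groups overlapped. By edgeR's quasi-likelihood test none of the 6 was called or had an unadjusted p under 0.05, and DESeq2 called none. *Tgfb2*, the most abundant of them, was at 48.6, 44.7 and 49.1 CPM in Ctrl and 46.4, 42.9 and 45.8 CPM in cKO (log2 fold change -0.07, 95% interval -0.23 to 0.09). *Gdf11*, a relative of myostatin, had a log2 fold change of -0.07 (95% interval -0.25 to 0.11). Intervals were wider for the genes of lower level: that of *Inhba*, which encodes an activin subunit, ran from -0.15 to 1.10.

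Among the 6 extracellular antagonists and modulators, *Nog* rose and *Chrd* fell, which is 33.3% called against 6.66% of all tested genes. *Chrd* encodes chordin, which holds BMPs away from their receptors (ENSMUSG00000006958, mm10 chr16:20733127-20742384, plus strand). It stood at 63.5, 58.9 and 61.8 CPM in Ctrl and 31.5, 31.6 and 30.2 CPM in cKO. The libraries of each group lay close together and far from the other group, and the cKO level was 0.506 of the Ctrl level (log2 fold change -0.98, SE 0.07, edgeR's quasi-likelihood adjusted p = 1.5e-05). *Thpo*, which overlaps *Chrd* by 1385 bases on the opposite strand, also fell (log2 fold change -1.23, adjusted p = 0.00167 by the same test), at 33 to 94 counts per library. *Chrd* had 485 to 976 counts, and reads in the shared bases cannot be assigned to a strand here.

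*Nog* encodes noggin, which covers the receptor-binding surfaces of BMPs (ENSMUSG00000048616, mm10 chr11:89300638-89302332, minus strand). It had 150, 121 and 141 counts in Ctrl and 271, 223 and 241 in cKO, or 9.76, 7.88 and 9.05 CPM against 15.6, 14.5 and 15.01 CPM. The increase was 1.69-fold (log2 fold change 0.76, SE 0.11, edgeR's quasi-likelihood adjusted p = 0.00116) with no overlap. The ratio of *Chrd* to *Nog* in FPKM, chosen after the values were seen, was 1.76, 2.02 and 1.85 in Ctrl and 0.546, 0.589 and 0.545 in cKO.

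*Grem1*, a BMP antagonist of the DAN family, and *Fst*, which encodes the activin-binding protein follistatin, passed the fold limit but not the adjusted p of 0.01. *Grem1* stood at 5.14, 5.79 and 5.07 CPM in Ctrl and 7.44, 7.49 and 7.85 CPM in cKO (log2 fold change 0.51, SE 0.14, edgeR's quasi-likelihood adjusted p = 0.0234). *Fst* stood at 4.49, 3.58 and 3.47 CPM in Ctrl and 2.08, 2.67 and 2.55 CPM in cKO (log2 fold change -0.66, SE 0.21, edgeR's quasi-likelihood adjusted p = 0.0478). In neither gene did the groups overlap, but DESeq2 gave adjusted p-values of 0.0763 for *Grem1* and 0.130 for *Fst*. The most abundant genes of this role were *Fstl1*, a secreted follistatin-like glycoprotein, and *Bmp1*, the protease that cleaves chordin. Their log2 fold changes were 0.00 and 0.06, with 95% intervals of -0.13 to 0.14 and -0.05 to 0.17.

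**Figure D3:**
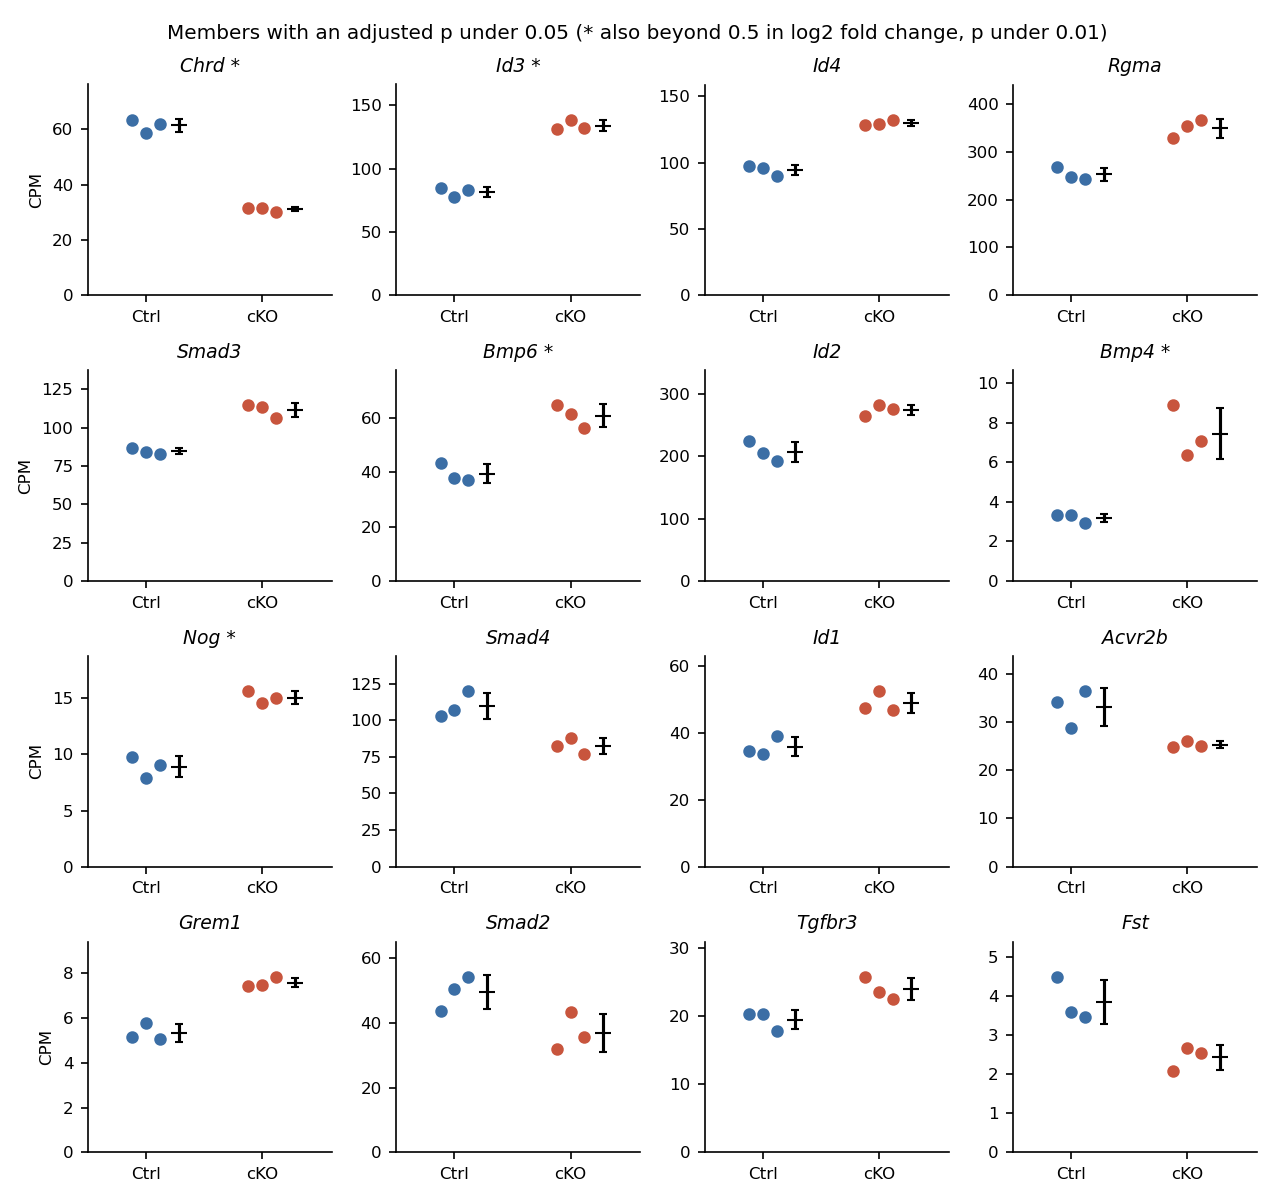
CPM per library (points), with the mean and SD of each group (bars, n = 3), for the 16 genes with an adjusted p under 0.05, on axes that start at 0. Asterisks mark the 5 called genes. In all 16 the Ctrl and cKO libraries do not overlap, against 40.5% of all tested genes. The 16 were picked by their p in these same libraries, so this adds no evidence.

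No receptor was called in either direction by edgeR or DESeq2. The 5 type I receptors had a median log2 fold change of 0.04, and their 95% intervals all lay between -0.37 and 0.25. By edgeR's quasi-likelihood test 1 of the 5 had an unadjusted p under 0.05 (37.1% of all tested genes), *Tgfbr1*, the TGF-beta type I receptor (log2 fold change -0.19, adjusted p = 0.123). The 2 most abundant type I receptors were *Acvr1b*, an activin receptor at 22.2 ± 1.40 FPKM in Ctrl, and *Bmpr1a*, a BMP receptor at 20.9 ± 1.41 FPKM. *Acvr1b* had a log2 fold change of 0.06 and *Bmpr1a* one of 0.04.

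Among the 4 type II receptors the median log2 fold change was -0.26, and 2 had an unadjusted p under 0.05 by edgeR's quasi-likelihood test (37.1% of all tested genes). *Acvr2b*, a receptor for activins and GDF11, stood at 34.1, 28.7 and 36.4 CPM in Ctrl and 24.8, 26.1 and 25.0 CPM in cKO. The groups did not overlap, and the log2 fold change was -0.39 (SE 0.10, edgeR's quasi-likelihood adjusted p = 0.0163). *Acvr2a*, its close relative, had a log2 fold change of -0.20 (adjusted p = 0.129 by the same test) with overlapping groups. *Bmpr2*, the BMP type II receptor, varied most within groups, with 123, 194 and 169 CPM in Ctrl and 104, 181 and 108 CPM in cKO. Its log2 fold change of -0.31 had a 95% interval of -0.78 to 0.17.

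None of the 4 co-receptors was called, and 2 had an unadjusted p under 0.05 by edgeR's quasi-likelihood test (37.1% of all tested genes). Among them *Rgma*, which encodes a GPI-anchored BMP co-receptor that also serves as a repulsive guidance cue, was the most abundant. It stood at 269, 247 and 244 CPM in Ctrl and 329, 354 and 368 CPM in cKO, with no overlap. The 1.38-fold difference was under the fold limit (log2 fold change 0.47, SE 0.06, edgeR's quasi-likelihood adjusted p = 4.04e-04). *Tgfbr3*, which encodes betaglycan, stood at 20.3, 20.3 and 17.9 CPM against 25.8, 23.6 and 22.6 CPM (log2 fold change 0.30, SE 0.09, adjusted p = 0.0398 by the same test, and 0.0778 by DESeq2). *Rgmb*, the paralog of *Rgma*, had a log2 fold change of 0.07 (95% interval -0.08 to 0.22), and *Bambi*, a pseudoreceptor without a kinase domain, had one of -0.12 (95% interval -0.54 to 0.30).

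The receptor-regulated Smads and *Smad4* had log2 fold changes of both signs, with a median of 0.01, and none reached the fold limit. By edgeR's quasi-likelihood test 3 of the 6 had an unadjusted p under 0.05, against 37.1% of all tested genes. *Smad3*, an effector of TGF-beta and activin, stood at 87.0, 84.2 and 82.8 CPM in Ctrl and 115, 113 and 106 CPM in cKO (log2 fold change 0.39, SE 0.05, edgeR's quasi-likelihood adjusted p = 6.13e-04). *Smad2*, its partner in the same branch, stood at 43.7, 50.3 and 54.1 CPM in Ctrl and 31.9, 43.3 and 35.4 CPM in cKO (log2 fold change -0.42, SE 0.12, adjusted p = 0.0277 by the same test). The highest cKO library of *Smad2*, cKO 2, lay just under the lowest Ctrl library. *Smad4*, the common partner of both branches, stood at 103, 107 and 120 CPM in Ctrl and 82.3, 88.0 and 77.1 CPM in cKO (log2 fold change -0.42, SE 0.07, adjusted p = 0.00245 by the same test).

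The groups did not overlap in any of these 3 genes, a state shared by 40.5% of all tested genes. The ratio of *Smad3* to *Smad4* in FPKM, chosen after the values were seen, was 0.565, 0.528 and 0.462 in Ctrl and 0.932, 0.862 and 0.922 in cKO. The BMP-regulated Smads showed smaller differences. *Smad5*, the most abundant of them at 21.1 ± 0.483 FPKM in Ctrl, had a log2 fold change of -0.09 (95% interval -0.21 to 0.02), and *Smad1* had one of 0.11 (95% interval -0.01 to 0.24). *Smad9* had a log2 fold change of 0.28 at 8.20 to 13.03 CPM.

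Neither inhibitory Smad was called. *Smad7*, which recruits ubiquitin ligases to the receptors, had a log2 fold change of -0.20 (95% interval -0.43 to 0.03). *Smad6*, a feedback inhibitor induced by BMPs, stood at 4.30, 3.84 and 2.57 CPM in Ctrl and 4.90, 5.34 and 5.36 CPM in cKO, without overlap. It had an unadjusted p of 0.027 and an adjusted p of 0.0867 by edgeR's quasi-likelihood test (log2 fold change 0.54, SE 0.21).

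All 4 Id genes had higher counts in every cKO library than in any Ctrl library, with a median log2 fold change of 0.45. Over all tested genes, 20.4% were without overlap and higher in cKO. *Id3* rose, from 85.0, 77.4 and 83.2 CPM to 131, 139 and 132 CPM (ENSMUSG00000007872, mm10 chr4:136143497-136145755, plus strand). The increase was 1.64-fold (log2 fold change 0.71, SE 0.05, edgeR's quasi-likelihood adjusted p = 2.7e-05). *Id4* stood at 97.3, 96.2 and 89.7 CPM in Ctrl and 128, 129 and 132 CPM in cKO (log2 fold change 0.46, SE 0.05, adjusted p = 2.23e-04 by the same test).

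*Id2* stood at 224, 206 and 192 CPM in Ctrl and 265, 281 and 276 CPM in cKO (log2 fold change 0.40, SE 0.06, edgeR's quasi-likelihood adjusted p = 9.89e-04). *Id1* stood at 34.7, 33.8 and 39.1 CPM in Ctrl and 47.5, 52.5 and 46.9 CPM in cKO (log2 fold change 0.45, SE 0.08, adjusted p = 0.00361 by the same test). *Id1*, *Id2* and *Id4* passed the adjusted p of 0.01 and were under the fold limit. The summed FPKM of the 4 Id genes, examined after the values were seen, was 193, 180 and 181 in Ctrl and 256, 269 and 261 in cKO.

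These are whole-tissue libraries, in which fewer cells of a type and less RNA per cell cannot be told apart, and markers of several cell types differed between the groups. All 8 markers of granule neuron progenitors were called lower, and their summed CPM was 1318 to 1435 in Ctrl and 520 to 571 in cKO. The 6 markers of differentiating granule neurons summed to 1348 to 1468 CPM in Ctrl and 781 to 833 CPM in cKO. Of the 5 of these that were tested, 4 were called lower. The 9 markers of Bergmann glia and astrocytes summed to 3219 to 3233 CPM in Ctrl and 3988 to 4267 CPM in cKO, with 4 of 9 called higher. The 10 markers of meninges and fibroblasts summed to 718 to 759 CPM in Ctrl and 892 to 1099 CPM in cKO. Of these 10, 4 were called higher, 7 had log2 fold changes above 0 and 3 below. The 3 were *Col3a1* (-0.01), *Dcn* (-0.05) and *Lum* (-0.16), none of them called. The 9 endothelial markers summed to 433 to 482 CPM in Ctrl and 432 to 446 CPM in cKO. Over all tested genes 3.03% were called higher and 3.63% lower. Mural cell markers (7) summed to 425 to 453 CPM in Ctrl and 509 to 526 CPM in cKO, with 1 called higher. Of these 7, 5 had log2 fold changes above 0 and 2 below, *Rgs5* (-0.14) and *Abcc9* (-0.18), neither of them called. Microglial markers (8) summed to 103 to 107 CPM in Ctrl and 133 to 148 CPM in cKO, with 1 called higher. No gene of these lists was at 0 in every library.

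The 7 Purkinje cell markers summed to 1051 to 1108 CPM in Ctrl and 1546 to 1783 CPM in cKO, and the 6 oligodendrocyte lineage markers to 469 to 507 CPM against 621 to 666 CPM. In the latter list 5 of 6 were called higher, whereas *Pdgfra*, the marker of oligodendrocyte precursors, stood at 185, 207 and 192 CPM in Ctrl and 139, 142 and 145 CPM in cKO (log2 fold change -0.45, edgeR's quasi-likelihood adjusted p = 3.07e-04). The part of these shifts in the differences of *Bmp4*, *Bmp6*, *Nog*, *Chrd* and the Id genes was not tested. The 9 markers of the choroid plexus, a BMP-rich tissue beside the cerebellum, set cKO 3 apart from the other libraries. They summed to 135 to 203 CPM in Ctrl and 39.0 to 786 CPM in cKO, with cKO 2 the lowest and cKO 3 the highest. Of these 9, 8 had log2 fold changes above 0, none of them called, and 1 was called lower. Without cKO 3 the same 5 pathway genes were called, and *Bmp4* had a log2 fold change of 1.26 and *Bmp6* one of 0.68. That fit kept cKO 1, whose choroid plexus sum of 225 CPM was above every Ctrl library, and cKO 2, below them. The part of choroid plexus tissue in these differences was not tested.

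**Figure D4:**
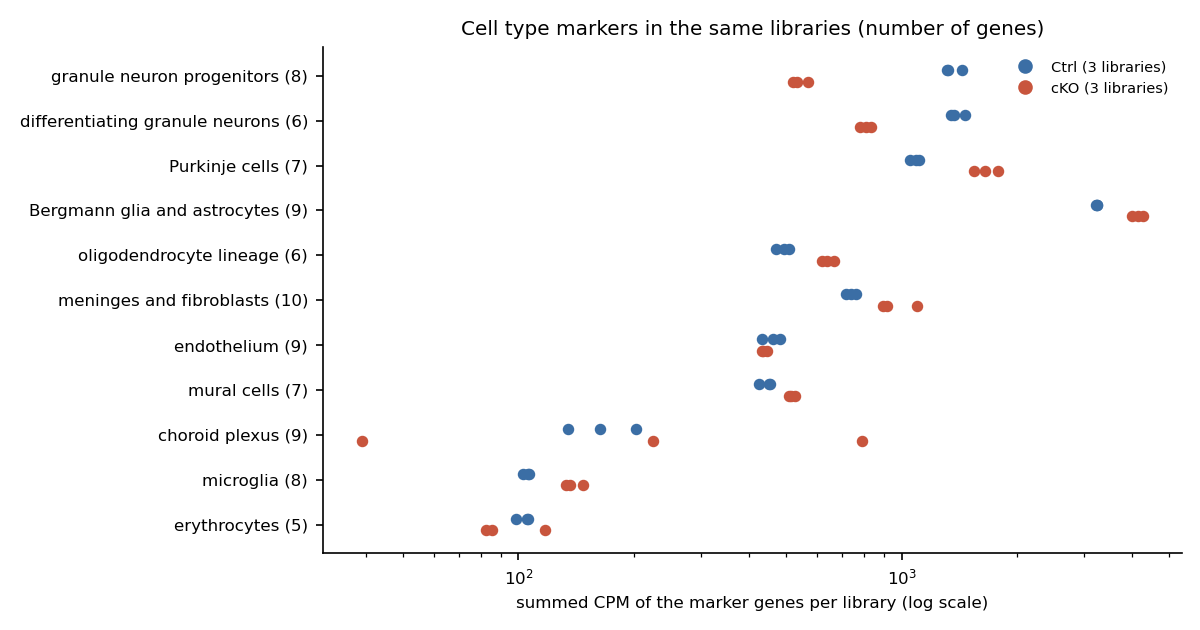
Summed CPM per library (log scale) of 11 lists of cell type markers, with the number of genes in each list in parentheses, Ctrl in blue and cKO in red. The sums of granule neuron markers are lower in cKO, and those of Purkinje cell, Bergmann glia, oligodendrocyte lineage, meningeal, mural and microglial markers higher. Single markers can differ from their sum (*Pdgfra*, *Col3a1*, *Dcn*, *Lum*, *Rgs5*, *Abcc9*), and the choroid plexus sum spreads from 39.0 to 786 CPM within cKO.

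Beyond the 48 genes, 81 other genes of the pathway were listed by role, and 62 of them were tested. Of these 62, 5 rose and 3 fell, which is 12.9% called against 6.66% of all tested genes, and the median log2 fold change was 0.11. *Gdf10*, which encodes a BMP-like ligand known as BMP3B and expressed by Bergmann glia, rose from 383, 380 and 323 CPM to 769, 839 and 848 CPM (log2 fold change 1.18, SE 0.07, edgeR's quasi-likelihood adjusted p = 7.77e-06). It was the only one called of 5 other ligands tested. None of the 4 other receptors and co-receptors was called by edgeR's quasi-likelihood test, and 1 had an unadjusted p under 0.05 (37.1% of all tested genes).

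Among 18 other antagonists and modulators, *Nbl1* and *Smoc1* rose and *Chrdl2* fell, which is 16.7% called against 6.66% of all tested genes. *Chrdl2*, a relative of chordin, fell from 8.40, 7.68 and 7.64 CPM to 3.40, 3.06 and 2.74 CPM (log2 fold change -1.36, SE 0.16, edgeR's quasi-likelihood adjusted p = 2.96e-04). *Smoc1*, which encodes a matricellular BMP antagonist, rose from 93.2, 89.3 and 87.8 CPM to 148, 140 and 150 CPM (log2 fold change 0.69, adjusted p = 2.17e-05 by the same test). *Nbl1*, a DAN family antagonist, rose with a log2 fold change of 0.79 (adjusted p = 5.46e-04 by the same test). In this role 16 of the 18 genes had log2 fold changes above 0, with a median of 0.39, against -0.01 over all tested genes. Whether the role differed as a set was not tested.

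Among 11 genes of latent TGF-beta binding and activation, *Fbn2*, which encodes a microfibril protein, rose (log2 fold change 0.69, SE 0.08, edgeR's quasi-likelihood adjusted p = 3.26e-04). Of 15 intracellular regulators, the Smad corepressor *Tgif1* was called lower (log2 fold change -0.65), and 10 of the 15 were below 0. Their median was -0.16, against -0.01 over all tested genes. Of 9 other transcriptional targets, *Hey1*, which also responds to Notch, fell from 93.5, 93.8 and 86.6 CPM to 43.5, 39.4 and 44.3 CPM (log2 fold change -1.11, SE 0.07, edgeR's quasi-likelihood adjusted p = 7.02e-06). *Ctgf*, a matricellular target of TGF-beta, was called higher (log2 fold change 1.498), with 7.23, 8.79 and 5.97 CPM in Ctrl and 23.9, 24.8 and 13.5 CPM in cKO. By limma on log2(FPKM + 1), *Tgif1* (log2 fold change -0.48) and *Ctgf* (1.18, adjusted p = 0.0111) were not called.

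**Figure D5:**
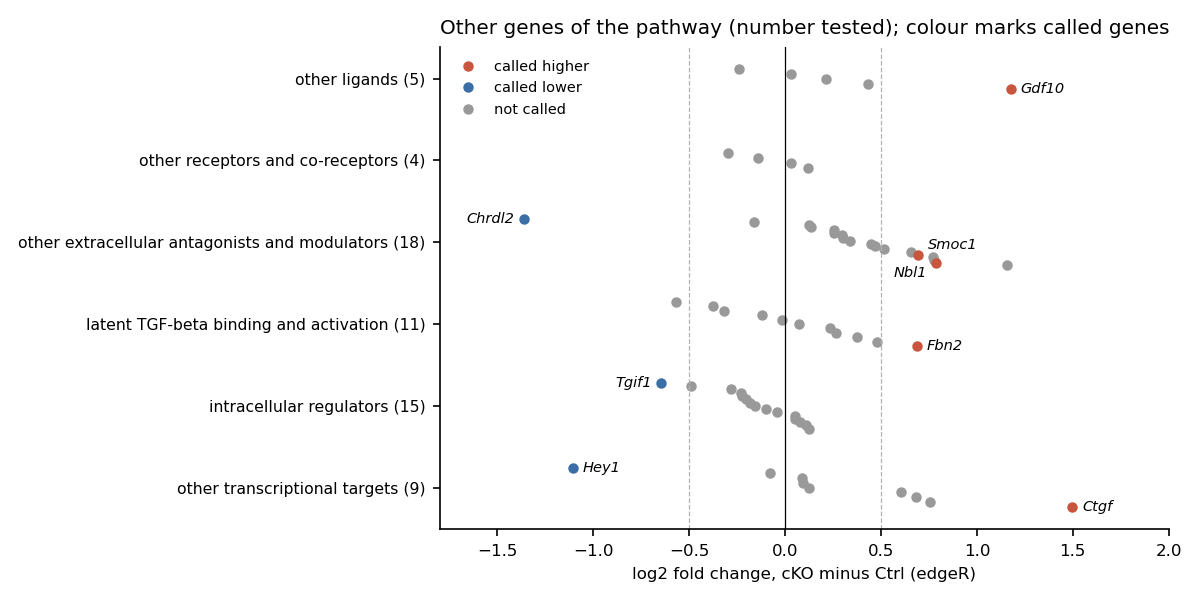
Log2 fold change (cKO minus Ctrl, horizontal axis) of the 62 tested pathway genes outside the list of 48, grouped by role with the number tested. Labelled genes were called, 5 higher (red) and 3 lower (blue), and most other antagonists and modulators lie to the right of 0.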

How the data were processed

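Poly-A RNA of P1 cerebella, isolated from total RNA on poly-T beads, was sequenced as paired reads. Per the labels and the study's methods, the authors aligned reads to mm10 with HISAT2 2.0.5, counted reads per gene with featureCounts 1.5.0-p3, and deposited raw counts and FPKM values computed from gene length and read count. The release of the annotation, the use of strand and the treatment of multiply mapped reads are not given in the sources used here.

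The 6 libraries were grouped by their labels, 3 Ctrl and 3 cKO, with 15391854 to 17178478 counts each. Counts were filtered with filterByExpr, scaled by TMM and tested with edgeR 4.0.16 (glmQLFit and glmQLFTest, R 4.3.3) over 17505 genes with Benjamini-Hochberg adjustment. The thresholds were those of the study, an adjusted p under 0.01 and an absolute log2 fold change over 0.5. CPM here are counts scaled to the TMM-adjusted library size, intervals cover 95%, and SD is over 3 libraries. FPKM were used as deposited by the authors, for levels. Alternatives were DESeq2 1.42.0, limma 3.58.1 on log2(FPKM + 1) and log2(FPKM + 0.1), other scalings and filters, the replicate number as a block, a covariate for Y-chromosome gene expression, other thresholds, and leaving out each library. The scripts were tested on simulated data, where changes in genes under 10 CPM were recovered less often than those of higher genes. The first tolerance of that check, over genes of all levels, was missed and was replaced after this was seen by one on genes of at least 10 CPM.

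The 48 genes, the roles, the other pathway lists and the marker lists were chosen with earlier results of these data known. The text names *Tox3* and *Atoh1*, every pathway gene called or with an adjusted p under 0.05, up to 2 others of highest FPKM in each role, untested genes with their counts, and every called gene of the other lists. Further genes are named as ranges or chosen after their values were seen. Promoters are from RefSeq, GRCm38.p6, and were matched by symbol. Pairs of libraries of the same group differed by more than sampling noise. The smallest exact permutation p for 3 against 3 is 0.1, so no such test was used.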

Additional observations from a re-analysis of the deposited data

How the results depend on the processing

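The 5 called pathway genes were the same under DESeq2, DESeq2 size factors, library size alone, no count filter, at least 10 counts in every library, both filtered FPKM fits, the replicate block and the Y-chromosome covariate, and all 5 stayed called without any single library. *Chrd* was called in 18 of 18 alternatives, *Bmp6*, *Nog* and *Id3* in 17, and *Bmp4* in 16. With edgeR's glmTreat against a log2 fold change of 0.5, 0 pathway genes were called higher (4 had an unadjusted p under 0.05) and 1 lower, with 30 higher and 145 lower over all genes and 1 higher among the other pathway genes. With an adjusted p under 0.05 and no fold limit, 11 pathway genes were higher and 5 lower, 14 and 9 of the other pathway genes, and 2136 and 2252 of all genes. On log2(FPKM + 1), 285 of all genes were higher and 397 lower, and on log2(FPKM + 0.1) 338 were higher. Without a filter on low FPKM, 176 of all genes were higher and 286 lower, 2 and 1 of the other pathway genes, and *Bmp4* lost its call (log2 fold change 0.83, adjusted p = 0.0142 by limma). The cause of these shifts was not tested.

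Leaving out each library gave 4 to 5 pathway genes higher and 1 to 2 lower, 5 to 6 and 3 to 5 of the other pathway genes, and 349 to 569 and 492 to 778 of all genes. The lowest number called higher over all genes, 349, came without cKO 3. Without cKO 2, *Smad2* was also called (log2 fold change -0.54, adjusted p = 0.00429 by edgeR) and 5 other pathway genes were lower. Without Ctrl 3 *Id1* was also called (0.52), and without Ctrl 1 or cKO 1 *Rgma* (0.51 in each). Adjusted p-values reached 0.0717 for *Grem1*, 0.153 for *Fst*, 0.0601 for *Acvr2b*, 0.163 for *Tgfbr3* and 0.106 for *Smad2* in these fits by edgeR. Signs turned, in genes uncalled either way, for *Fstl1* (log2 fold changes from -0.052 to 0.039 over the 6 fits), *Tgfb3* (from -7e-04 to 0.31), *Bmpr1a* (from -0.080 to 0.11), *Tgfbr2* (from -0.039 to 0.15), *Inhbb* (from -0.22 to 0.0038) and *Bambi* (from -0.26 to 0.038). Of 787 log2 fold changes of pathway genes under all alternatives, 759 kept their direction and their side of the threshold.

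Ctrl and cKO libraries of the same number did not all deviate together (correlations 0.26, 0.30 and -0.16), so the numbers were not taken as pairs. The pair at -0.16, Ctrl 3 and cKO 3, joined a library without counts of the Y-chromosome gene *Ddx3y* and one with them. The other pairs were alike in this, so these values cannot separate pairing by number from that split, described below. With the replicate block, 561 genes were called higher and 696 lower, 4 and 1 of the 48, and 5 and 4 of the other pathway genes. Genes under 10 CPM, such as *Bmp2*, *Bmp3*, *Fst*, *Grem1* and *Smad6*, rest on few counts, so a missed call says little there.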

Other observations

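*Bmpr2* levels followed a split of the libraries that was not the genotype. Counts of *Ddx3y*, a gene of the Y chromosome, were 1451 in Ctrl 1, 1237 in cKO 1 and 1101 in cKO 3, and 0 in Ctrl 2, Ctrl 3 and cKO 2. Counts of *Xist*, the RNA of the inactive X chromosome, were 31, 8 and 5 in the first 3 libraries and 37159, 33432 and 30428 in the others, so the split followed the sex chromosomes. *Bmpr2* stood at 6.76, 5.79 and 5.97 FPKM in the 3 libraries with *Ddx3y* counts and at 10.7, 9.31 and 9.97 FPKM in the 3 without, with no overlap. In an edgeR quasi-likelihood fit with genotype and the summed level of Y-chromosome genes as terms, the Y term of *Bmpr2* had an adjusted p of 7.11e-06. The same term had an adjusted p under 0.05 in 783 genes, 4.47% of those tested, and 723 of them were not on the X or Y chromosome. The split was not particular to *Bmpr2*. Over all tested genes, deviations from the group mean correlated at 0.23 to 0.30 between Ctrl and cKO libraries of the same set. Across the sets the correlations were -0.44 to -0.12. With 3 libraries in each set, sex and another factor shared by the same libraries cannot be told apart. *Bmpr2* was singled out after its values were seen.

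Of the other pathway genes, *Smad2* had an adjusted p under 0.05 for the Y term (0.0305, edgeR's quasi-likelihood test). With the term in the fit, the log2 fold change of *Smad2* between cKO and Ctrl was -0.34 (SE 0.08, adjusted p = 0.00274), under the fold limit, and that of *Bmpr2* was -0.14 (SE 0.06, adjusted p = 0.104). The 5 called genes kept their calls in this fit. On the log2(CPM + 0.5) scale the difference of *Bmp4* between cKO and Ctrl was 1.14 within the libraries with *Ddx3y* counts and 0.92 within those without, that of *Bmp6* 0.47 and 0.71, that of *Nog* 0.62 and 0.75, that of *Chrd* -1.03 and -0.92, and that of *Id3* 0.63 and 0.79. Each of these sets holds 3 libraries and allows no test.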
